A study of Mus musculus with 20 samples.

Results

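The genes described here code for the protein complexes of the mitochondrial respiratory chain and the ATP synthase, measured in dorsal root ganglia of mice, which house the cell bodies of sensory neurons. They were taken by name: gene symbols from GENCODE M21 that start as Nduf with a subunit letter and number, Sdha to Sdhd, Uqcr, the subunit names Cox4 to Cox8 with a letter, or Atp5, together with the 13 protein genes of mitochondrial DNA, and without symbols that end in -ps. This gave 105 of 78258 identifiers in the count table, of which 92 are nuclear and 13 mitochondrial, and 3 further matches were left out by the -ps ending. By annotation 96 are protein-coding and 9 are processed pseudogenes. Cox4i1, Cyc1, Cycs and Ndufab1 fall outside these name patterns and are described with the related lists. A total of 103 of the 105 had enough counts to be tested, and Cox8c, a testis isoform, and the pseudogene Ndufa11b did not.

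A group of 5 male mice carried a conditional knockout of Ahr (cKO), the gene of the aryl hydrocarbon receptor: their genotype was Ahr fl/fl with Thy1CRE-ERT2/EYFP, a tamoxifen-inducible Cre recombinase and a yellow fluorescent protein driven by the Thy1 promoter. Control mice were Ahr f/f or f/+, and the labels do not say which of the 5 carried which. Tamoxifen was given to mice of both genotypes, once a day for 5 days at 100 mg/kg, when they were 17 weeks old. A sciatic nerve was transected 4 weeks later. One day after the lesion the L4 to L6 ganglia were taken separately from the injured (ipsilateral) and the uninjured (contralateral) side, which made 4 groups of 5 libraries and 1 library per mouse and side. Deletion was limited to Thy1-expressing cells, while the ganglia also held glia, fibroblasts and vessels, and the uninjured side came from mice with a lesion on the other side.

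The respiratory chain moves electrons from NADH (complex I) and succinate (complex II) through complex III to oxygen at complex IV and pumps protons, and the ATP synthase uses the proton gradient to make ATP. Complexes I, III, IV and the ATP synthase combine subunits from nuclear genes with subunits from mitochondrial DNA, whose genes are transcribed as long polycistronic RNAs, while complex II is wholly nuclear-encoded. Sensory neurons with long axons rely on this system for impulse conduction and axonal transport.

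The promoters of the nuclear genes are shown first. Nuclear respiratory factor 1 (NRF1), ETS-family factors such as GABP, and YY1 are textbook regulators of this gene class. Their part in the results below was not tested. RefSeq promoters (build GRCm38.p6) matched 68 of the 83 nuclear members that are not processed pseudogenes, in 73 sequences. In windows of 300 bases, 250 before and 50 after the start, the NRF1 motif, the palindrome in capitals in Atp5k below, occurred in 5 of 68 members (7.35%) and in 1.07% of 27025 genes. The ETS motif CCGGAAGT, sought on both strands, occurred in 5 of 68 (7.35%) against 4.31%, and the YY1 core motif, also on both strands, in 4 of 68 (5.88%) against 0.755%. With its central T left free the NRF1 motif was found in 17 members (25%) and 5.19% of all genes, and the ETS motif CCGGAAGN in 16 (23.5%) and 9.90%. Each looser form includes its exact form, so those counts overlap. Such matches are descriptions of letters and not of bound sites. The 250 bases upstream of 4 members whose transcripts were called lower after injury in the cKO mice carry an NRF1 match (Atp5k, Ndufa11) or an ETS match (Uqcr11, Uqcrh), and the match is in capitals.
Atp5k, chr5:108434400-108434649, minus strand: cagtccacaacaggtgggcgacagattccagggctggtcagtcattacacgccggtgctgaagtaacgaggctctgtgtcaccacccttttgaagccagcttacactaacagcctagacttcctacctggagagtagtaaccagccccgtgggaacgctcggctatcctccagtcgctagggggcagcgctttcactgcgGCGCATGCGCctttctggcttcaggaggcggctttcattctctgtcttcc
Ndufa11, chr17:56717512-56717761, plus strand: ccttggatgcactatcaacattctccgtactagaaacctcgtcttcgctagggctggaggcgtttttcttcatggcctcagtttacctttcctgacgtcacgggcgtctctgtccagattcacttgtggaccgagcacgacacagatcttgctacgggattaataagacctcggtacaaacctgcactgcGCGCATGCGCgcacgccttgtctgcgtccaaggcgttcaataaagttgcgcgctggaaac
Uqcr11, chr10:80406822-80407071, minus strand: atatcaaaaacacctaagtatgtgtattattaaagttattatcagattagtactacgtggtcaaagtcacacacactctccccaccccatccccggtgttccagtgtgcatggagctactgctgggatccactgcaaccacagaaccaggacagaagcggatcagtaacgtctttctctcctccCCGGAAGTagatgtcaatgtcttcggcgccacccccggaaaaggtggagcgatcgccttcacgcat
Uqcrh, chr4:116075071-116075320, minus strand: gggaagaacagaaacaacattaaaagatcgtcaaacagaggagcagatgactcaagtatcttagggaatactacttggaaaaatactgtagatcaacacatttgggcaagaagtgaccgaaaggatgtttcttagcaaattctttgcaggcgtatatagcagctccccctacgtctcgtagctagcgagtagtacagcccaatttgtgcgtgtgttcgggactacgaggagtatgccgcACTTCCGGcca
In Uqcrh the ETS letters lie on the strand opposite to the gene, next to the start, while in Uqcr11 they lie on the strand of the gene and farther upstream.

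Libraries held 76.2 to 118.5 M counts (M, mega). Ahr itself was 24.2 ± 2.10 CPM on the uninjured side in control and 20.4 ± 0.536 CPM in cKO mice (SD, n = 5; CPM, counts scaled by TMM to a library of 1 M), with no overlap of the libraries, but the difference of -0.25 on the log2 scale was not called (edgeR quasi-likelihood test, adjusted p 0.103). On the injured side it was 34.4 ± 2.86 CPM in control and 31.9 ± 2.94 CPM in cKO mice, where the libraries overlapped and the difference of -0.11 was not called, so Ahr did not separate the genotypes there. These counts cover the whole gene, so reads of exons outside the deleted part count too. All 12 sensory neuron markers were measured and summed to 7973 to 9449 CPM per library. Mean total counts were 95.3 M in control uninjured, 87.6 M in control injured, 82.9 M in cKO uninjured and 103.5 M in cKO injured libraries. Since libraries with more counts had lower summed levels of these genes, total counts are given beside the results below.

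Respiratory chain transcripts were abundant, and those of mitochondrial DNA were the most abundant per length. Per kilobase of merged exons and averaged over the 20 libraries, mt-Co1, the catalytic subunit of complex IV, reached 1638 ± 149 CPM (SD over libraries). It was followed by mt-Cytb, the cytochrome b of complex III, at 1173 ± 113 and mt-Nd1, a core subunit of complex I, at 1089 ± 103 CPM per kb, and the lowest of the 13 was mt-Nd3 at 284 ± 43.8 CPM per kb. The highest nuclear members on that scale were Cox6a1 (269 ± 14.01) and Cox8a (248 ± 14.5), both small subunits of complex IV, and Atp5a1, the alpha subunit of the ATP synthase (222 ± 9.29). Cox6a1 and mt-Nd3 did not differ beyond their spread over libraries, nor did Cox6a1 and Cox8a. Muscle and heart isoforms were low, with Cox6a2 at 1.87 ± 2.81 and Cox7a1 at 2.34 ± 0.684 CPM per kb, and the testis isoform Cox7b2 was at 0.234 CPM per kb. The 13 mitochondrial genes together took 0.871% to 1.25% of a library's counts and the 92 nuclear genes 0.774% to 0.961%.

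After injury 74 of the 103 tested members were called lower in cKO mice and 4 in control mice. In the cKO, 61 of 90 nuclear and 13 of 13 mitochondrial members fell and none rose (edgeR quasi-likelihood test, Benjamini-Hochberg adjusted p under 0.05 over 28564 genes), where 31.3% of all genes tested were called, 15.1% lower and 16.2% higher. The median log2 fold change was -0.14 for nuclear and -0.25 for mitochondrial members, against -0.03 for all genes. In control mice Ndufv3, Atp5s, Sdhd and Ndufs3 fell and Atp5d rose, where 29.9% of all genes were called, 16% lower and 13.8% higher, and the medians were 0.00 for nuclear and 0.07 for mitochondrial members. The sign of the nuclear median in control mice was not stable, since it lay between -0.02 and 0.01 under other scalings of the libraries. The difference between the genotypes in their response, tested as an interaction, was called for 0 of 103 members by edgeR (lowest adjusted p 0.485) and for 1, mt-Nd2, by DESeq2 (adjusted p 0.0432). In whole ganglia, fewer cells of a type and less RNA per cell cannot be told apart.

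**Figure D1:**
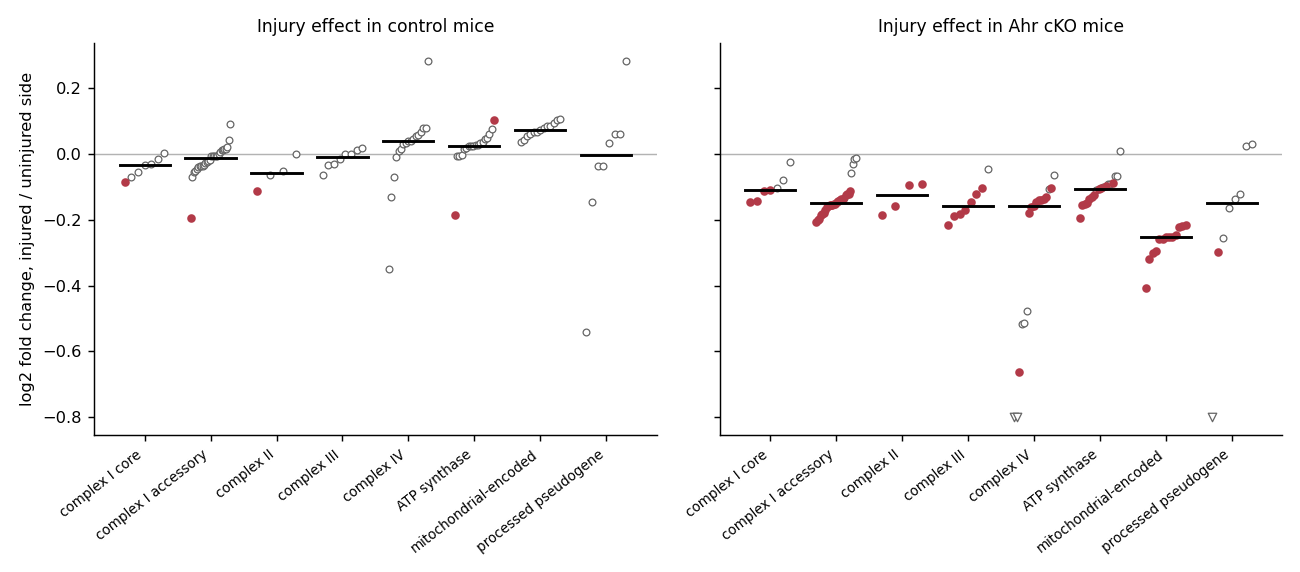
Injury effect on each tested member by role, as log2 fold change of the injured over the uninjured side (y axis), in control mice (left) and Ahr cKO mice (right). Filled points passed an adjusted p of 0.05 in the edgeR quasi-likelihood test, open points did not, black lines are medians, and triangles mark values below -0.8; in the cKO panel every mitochondrial-encoded gene is filled and lies between -0.41 and -0.22.

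Total counts moved with this result and their part in it cannot be separated by group, since the injured side had more counts than the uninjured side in 5 of 5 cKO mice and fewer in 4 of 5 control mice. With log2 total counts as a covariate, chosen after the data had been seen, 9 members were called lower in the cKO, 8 nuclear and 1 mitochondrial, and the medians were -0.09 for nuclear and -0.09 for mitochondrial members, while the calls over all genes went from 8939 to 5918. Without mouse H64, whose injured side had the most counts of all libraries, 33 members were called lower (24 nuclear, 9 mitochondrial), and without mouse H95 39 were (31 and 8). Fewer libraries entered those runs, and their calls over all genes are not given here. Of the 9 called with the covariate, 8 had also been called without it: mt-Nd2, Ndufa8, Ndufc2, Ndufs3, Ndufv3, Sdhc, Sdhd and Uqcrfs1.

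The mitochondrial-encoded genes had the largest median difference of the gene groups named by complex. Their summed level on the uninjured side was 10115, 10606, 10375, 8487 and 11122 CPM in control mice H62, H63, H65, H96 and H97 and 10275, 11979, 11824, 11064 and 12312 CPM in cKO mice H61, H64, H95, H99 and H100. On the injured side it was 10921, 10983, 10601, 11548 and 9710.0 CPM in control and 9689, 9430.0, 9264, 9540.4 and 10438 CPM in cKO mice, with libraries in the same order here and below. In the cKO the injured side was lower in 5 of 5 mice, yet the sides overlapped through H61 and H100, and in control mice it was lower only in H97. No mitochondrial gene was called in control mice (edgeR; 0 also at an unadjusted p under 0.05, and 0 by DESeq2 and limma-voom), while without H97 mt-Co1 and mt-Cytb were called higher there (edgeR adjusted p 0.0264 and 0.0397). The group means were 11491 ± 819 CPM uninjured and 9672 ± 455 CPM injured in cKO, a difference of -15.8% (log2 -0.25), against 10141 ± 996 and 10753 ± 675 CPM in control mice (SD, n = 5). Without H96 the control means were 10554.5 ± 428 and 10553.8 ± 587 CPM (n = 4), so the higher mean on the injured side rested on that mouse.

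**Figure D2:**
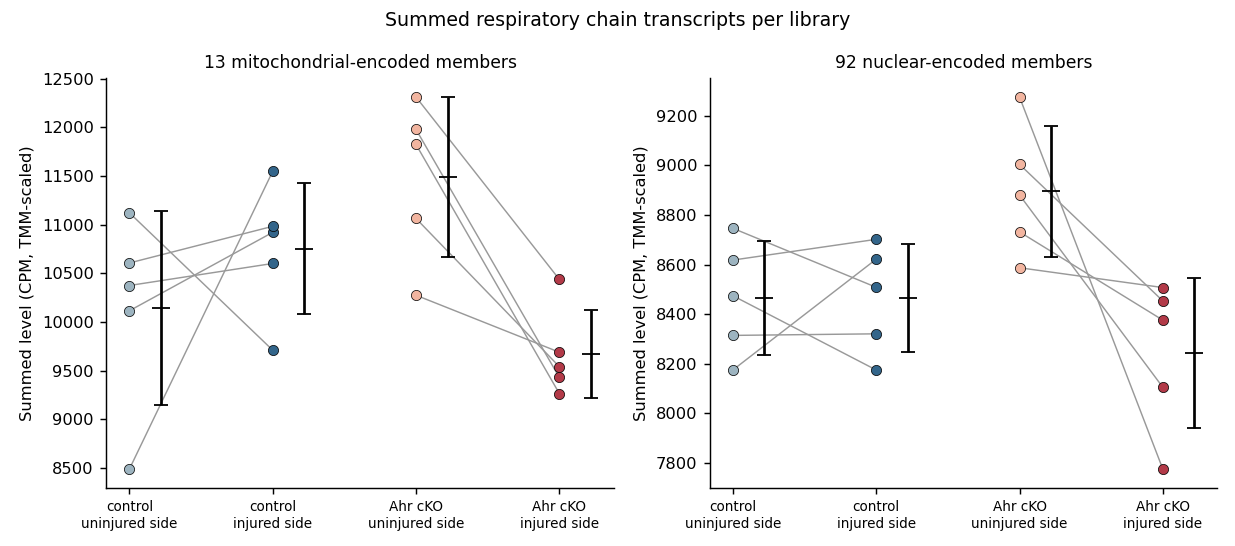
Summed level in CPM (y axis, not starting at 0) of the 13 mitochondrial-encoded (left) and 92 nuclear-encoded members (right) in each library, with grey lines joining the sides of a mouse and black bars giving mean ± SD (n = 5). Both sums are lower on the injured side in all 5 cKO mice, while the control mice go in both directions.

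mt-Nd2, a core subunit of complex I, had the lowest adjusted p of the 13. It was 804, 923, 942, 849 and 989.8 CPM on the uninjured and 705, 720.2, 712, 719.6 and 761 CPM on the injured side of the cKO mice. All injured libraries were below all uninjured ones, and the log2 fold change was -0.32 (SE 0.062, adjusted p 0.00046) by the edgeR quasi-likelihood test. In control mice it was 776, 814, 799, 652 and 852 CPM uninjured and 807, 804, 787, 868 and 747 CPM injured. Those ranges overlapped, with a log2 fold change of 0.04 (SE 0.062, adjusted p 0.665) in the same test. With total counts as a covariate the fall in the cKO was -0.19 (adjusted p 0.0431) in edgeR, the only mitochondrial gene still called.

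mt-Nd3, another core subunit of complex I, had the largest fold change of the 13. Its level was 93.96, 141, 126, 100.2 and 126 CPM on the uninjured side and 91.4, 81.3, 89.3, 90.3 and 89.9 CPM on the injured side of cKO mice. The uninjured libraries of H64, H95 and H100 stood above the others, and no injured library reached the lowest uninjured one. The log2 fold change was -0.41 (SE 0.088, adjusted p 0.00135) in the edgeR quasi-likelihood test, and -0.26 (adjusted p 0.0688) with the covariate. Control mice had 93.8 ± 8.48 CPM uninjured and 96.2 ± 4.96 CPM injured.

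mt-Co1 was 2528, 2788, 2742, 2652 and 2853 CPM uninjured and 2362, 2228, 2215, 2293 and 2549.7 CPM injured in cKO mice. It was lower in 5 of 5 mice, but the injured library of H100 lay above the uninjured one of H61, and the log2 fold change was -0.22 (SE 0.066, adjusted p 0.0136) in edgeR and -0.04 (adjusted p 0.657) with the covariate. mt-Nd6, the only protein gene on the other strand of mitochondrial DNA, moved by about as much, from 396 ± 30.7 to 339.7 ± 18.2 CPM (log2 fold change -0.22, edgeR adjusted p 0.0142). mt-Atp6 and mt-Atp8, subunits of the membrane part of the ATP synthase, share 43 bases of the same strand and cannot be told apart there. Their log2 fold changes in the cKO were -0.29 and -0.30. mt-Nd4 and mt-Nd4l overlap by 7 bases, and mt-Nd5 and mt-Nd6 by 14 bases on opposite strands. mt-Nd4l was not called with mouse as a replicate block (edgeR adjusted p 0.0832), or without H64, H95, H99 or H100 (0.053 to 0.145), and mt-Co1 was not called without H64 (0.0698) or H95 (0.0652). Without H95 the calls of mt-Nd5 and mt-Nd6 were lost too (edgeR adjusted p 0.0826 and 0.0832), and without the filter those of mt-Co1, mt-Nd4l, mt-Nd5 and mt-Nd6 (0.0508 to 0.0869). The strand setting of the counting is not given in the sources used here.

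The mitochondrial sum and total counts differed between the sides in opposite directions in each mouse. Total counts are also the denominator of CPM, so the 2 quantities are not independent. The log2 ratio of the sum, injured over uninjured side, was -0.08, -0.35, -0.35, -0.21 and -0.24 in cKO mice H61, H64, H95, H99 and H100, whose total counts were higher by 0.10, 0.64, 0.35, 0.34 and 0.14 on the log2 scale. In control mice it was 0.11, 0.05, 0.03, 0.44 and -0.20, and the log2 ratio of total counts was -0.16, -0.07, -0.25, -0.43 and 0.33. The signs were opposite in 10 of 10 mice, and over the 10 mice the 2 ratios had a Pearson r of -0.92 and a Spearman rho of -0.92, although the sum lay further below the uninjured side in H100 than in H99, where total counts differed more. The control mouse with more counts on the injured side, H97, was also the one with a lower mitochondrial sum there. For the nuclear sum the signs were opposite in 9 of 10 mice, with r -0.90 and rho -0.95. Over the 20 libraries, which share mice, the mitochondrial sum had a Pearson r of -0.87 and a Spearman rho of -0.85 with total counts. Without the 2 libraries farthest from the median total, the injured side of cKO H64 and the uninjured side of control H96, r was -0.82, and it was -0.79 after group means were removed. For the nuclear sum the values were -0.79 and -0.72, then -0.70 and -0.72 for r.

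**Figure D3:**
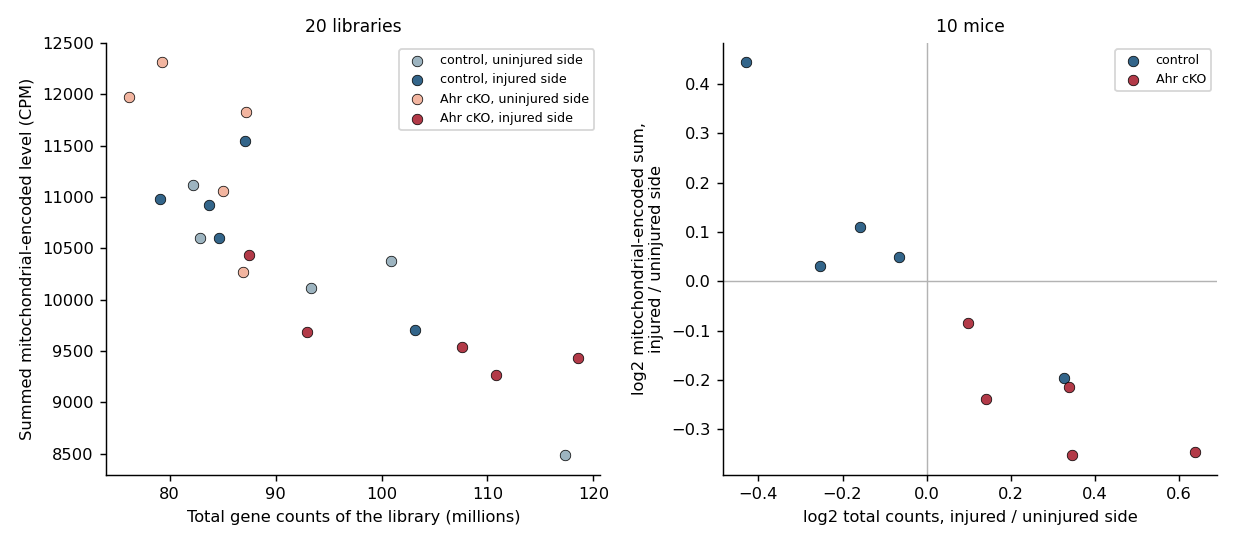
Summed mitochondrial-encoded level against total counts for the 20 libraries (left; axes in CPM and M counts, not starting at 0), and the log2 ratio of the injured to the uninjured side for both quantities in the 10 mice (right). Libraries with more counts lie lower, and every mouse falls in a quadrant where the 2 ratios have opposite signs.

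**Figure D4:**
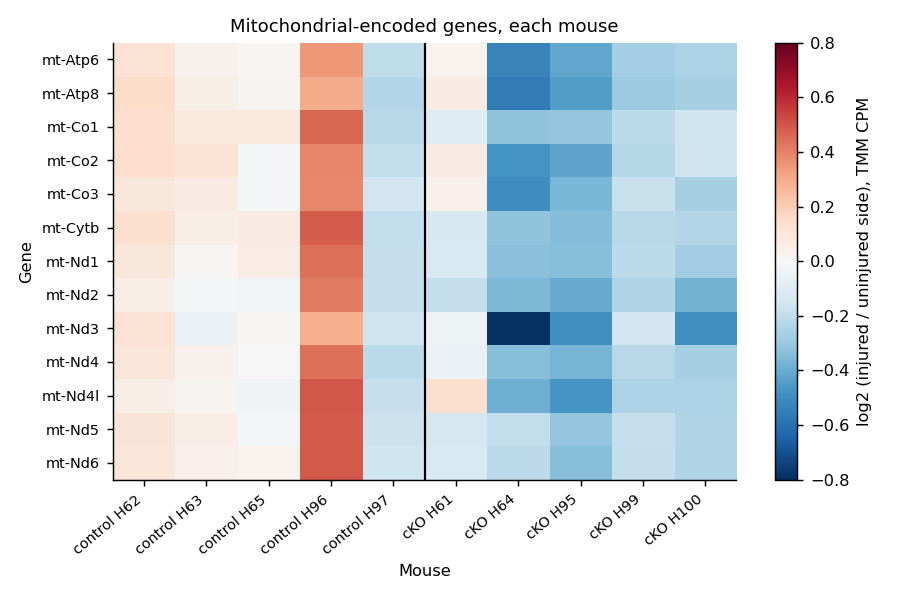
Log2 ratio of the injured to the uninjured side for each of the 13 mitochondrial-encoded genes (rows) in each mouse (columns; controls left of the line), coloured from blue (lower) to red (higher). H64, H95, H99, H100 and control H97 are blue in all 13 rows and controls H62 and H96 are red in all 13, while H61 is lower in 8, H65 in 6 and H63 in 2 of 13.

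Among the 7 nuclear core subunits of complex I, which carry or hold its electron path, 4 fell in the cKO and 1 in control mice. Of all genes, 15.1% were called lower in the cKO and 16% in control mice. The counts for each complex here and below are to be read beside these shares, and 1 of 7 in control mice was near that of all genes. Ndufs3 fell in both. It was 68.2, 71.2, 71.96, 68.6 and 69.2 CPM uninjured and 65.02, 64.5, 69.3, 65.4 and 65.3 CPM injured in control mice, and 72.4, 73.4, 74.2, 73.9 and 74.1 CPM uninjured and 67.4, 63.5, 65.7, 66.95 and 70.1 CPM injured in cKO mice. The sides did not overlap in the cKO, and in control mice they overlapped through the injured library of H65, although each mouse was lower on its injured side. The log2 fold changes were -0.08 (SE 0.027, adjusted p 0.0253) in control and -0.14 (SE 0.027, adjusted p 0.000395) in cKO mice (edgeR quasi-likelihood test), and -0.09 (adjusted p 0.0126) and -0.11 (adjusted p 0.0207) with the covariate. The call in control mice was lost without H63, H95, H96 or H97 (edgeR adjusted p 0.0975 to 0.244), without the filter (0.187) and with only the libraries compared (0.083). Ndufs7 and Ndufv2 also fell, by 0.15 and 0.11 on the log2 scale, while Ndufv1, the NADH-binding subunit, had a log2 fold change of -0.02 (edgeR adjusted p 0.567). The call of Ndufv2 was lost without H64 (edgeR adjusted p 0.0668).

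Of the 28 accessory subunits of complex I, 23 fell in cKO and 1 in control mice, with a median log2 fold change of -0.15 and -0.01. Ndufv3, a small subunit bound to the NADH-oxidising arm, was the one that fell in both. Its level was 92.9, 102, 97.3, 96.98 and 95.5 CPM uninjured and 82.6, 81.1, 87.4, 86.5 and 85.4 CPM injured in control mice, with no overlap. In cKO mice it was 91.8, 94.9, 97.001, 96.8 and 96.4 CPM uninjured and 85.3, 79.8, 83.2, 92.1 and 87.3 CPM injured, where only the injured library of H99 reached the lowest uninjured value. The log2 fold changes were -0.20 (SE 0.034, adjusted p 0.000147) and -0.16 (SE 0.034, adjusted p 0.00126) in the edgeR quasi-likelihood test. Ndufc2 had the lowest adjusted p of the nuclear members in the cKO, with 81.97, 90.2, 85.7, 82.1 and 84.97 CPM uninjured and 77.5, 67.998, 73.4, 76.8 and 74.2 CPM injured. Those ranges did not overlap, and the log2 fold change was -0.20 (SE 0.035, adjusted p 0.000134) in the cKO against -0.05 (SE 0.035, adjusted p 0.314) in control mice (edgeR). Ndufb4 and Ndufb8, both in the membrane arm, fell by 0.21 and 0.20 on the log2 scale, and the 5 that were not called were Ndufa1, Ndufa9, Ndufa10, Ndufa12 and Ndufb2. Ndufb4 was not called without H64 (edgeR adjusted p 0.0643), and Ndufa1 was called without H61 or H99 (0.03 to 0.0382) and with mouse as a random replicate block in limma-voom (0.0496).

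Complex II, succinate dehydrogenase, has 4 subunits, and 4 of 4 fell in cKO and 1 in control mice. Sdhd, a membrane anchor, was 107, 109, 109, 109 and 106 CPM uninjured and 99.5, 96.2, 104, 98.9 and 99.9 CPM injured in control mice. In cKO mice it was 108, 122, 117, 106 and 116 CPM uninjured and 103, 93.9, 99.9, 102 and 102 CPM injured. The sides did not overlap in either genotype, and the log2 fold changes were -0.11 (SE 0.035, adjusted p 0.0194) and -0.18 (SE 0.035, adjusted p 0.000367) by edgeR. The other anchor, Sdhc, fell in the cKO without overlap, from 98.9 ± 3.75 to 88.7 ± 3.28 CPM (log2 fold change -0.16 (SE 0.031, adjusted p 0.000556), edgeR). The catalytic subunits Sdha and Sdhb fell by 0.09 and 0.09 on the log2 scale, and with the covariate these were -0.05 (adjusted p 0.451) and -0.03 (adjusted p 0.543) in edgeR, no longer called. The call of Sdha was lost without any 1 of the 5 cKO mice (edgeR adjusted p 0.0593 to 0.0883) and without the filter (0.159), and that of Sdhb without H63, H64, H95, H96 or H97 (0.0502 to 0.224) and without the filter (0.19). With mouse as a replicate block Sdhd was not called in control mice (edgeR adjusted p 0.0556), nor Sdhb in the cKO (0.0642). Without control mouse H63, H96 or H97, or cKO mouse H95, Sdhd was not called in control mice either (edgeR adjusted p 0.085 to 0.203), nor without the filter (0.0665).

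**Figure D5:**
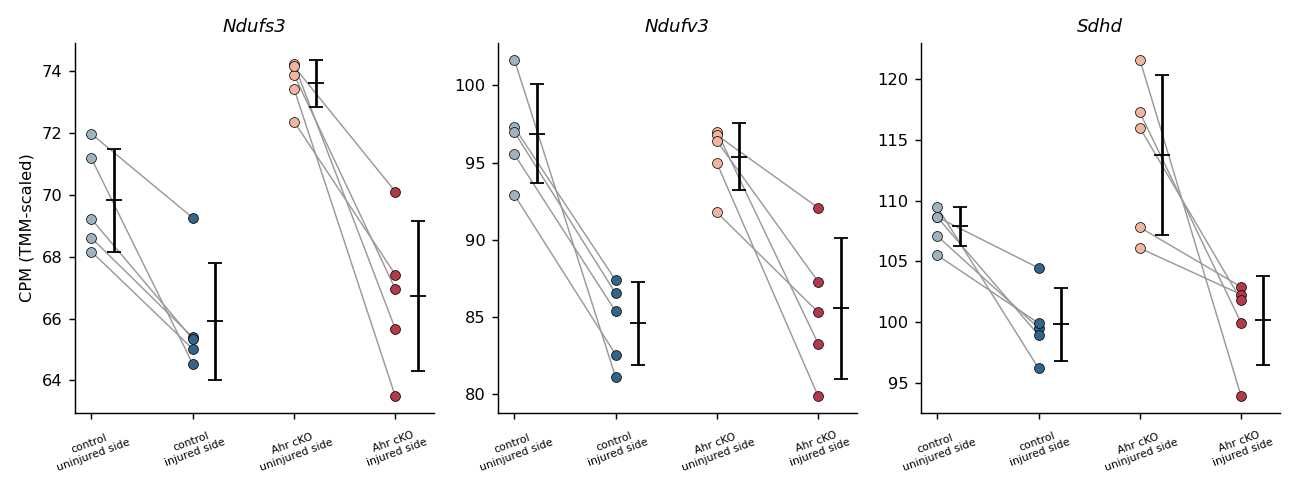
Level in CPM (y axis, not starting at 0) of Ndufs3, Ndufv3 and Sdhd, the 3 members called lower after injury in both genotypes, in each library, with grey lines joining the sides of a mouse and black bars giving mean ± SD (n = 5). Each of the 10 mice is lower on the injured side for each of the 3 genes, which were chosen by these calls. The share of all genes called lower in both genotypes is not given here.

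Of the 8 members of complex III, 7 fell in the cKO, with a median log2 fold change of -0.16, and 0 were called in control mice (edgeR; 0 also at an unadjusted p under 0.05 and by DESeq2 and limma-voom). Uqcr11, a small subunit, was 74.1, 90.8, 83.9, 72.5 and 83.3 CPM uninjured and 74.5, 62.6, 71.8, 69.2 and 70.2 CPM injured in cKO mice. The uninjured libraries of H64, H95 and H100 were highest, and H61 was not lower on its injured side, so the sides overlapped (log2 fold change -0.22 (SE 0.053, adjusted p 0.00324), edgeR). Uqcrh, the hinge subunit, was 101, 112, 104, 97.4 and 107 CPM uninjured and 96.9, 85.2, 92.4, 95.1 and 92.9 CPM injured, with no overlap (log2 fold change -0.17 (SE 0.038, adjusted p 0.00145), edgeR). The Rieske iron-sulphur protein Uqcrfs1 fell by 0.15 (edgeR adjusted p 0.00121), and -0.12 (adjusted p 0.0381) with the covariate, while Uqcr11 and Uqcrh were -0.16 (adjusted p 0.0886) and -0.10 (adjusted p 0.0884) with it, no longer called. The core protein Uqcrc1 was not called, with a log2 fold change of -0.04.

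For complex IV, cytochrome c oxidase, 10 of 17 tested nuclear members fell in the cKO. Cox7a2l, which assembles supercomplexes, was 111, 122, 112, 109 and 114 CPM uninjured and 106, 99.6, 100.0, 103 and 106 CPM injured in cKO mice. The ranges did not overlap, with a log2 fold change of -0.15 (SE 0.03, adjusted p 0.000667) in the cKO and -0.07 (SE 0.03, adjusted p 0.0931) in control mice, where it was lower in 5 of 5 mice and not called (edgeR quasi-likelihood test). With total counts as a covariate the values were -0.09 (adjusted p 0.0505) in the cKO and -0.09 (adjusted p 0.0138) in control mice, so that the call stood in control mice instead, and it was also called there with upper quartile scaling (0.0264) and without H64 (0.0425). Cox6c was 91.3, 106, 93.2, 88.7 and 99.8 CPM uninjured and 87.1, 79.7, 84.8, 84.3 and 87.9 CPM injured, also without overlap (log2 fold change -0.18 (SE 0.045, adjusted p 0.00416), edgeR, and -0.08 (adjusted p 0.229) with the covariate). The common isoforms Cox7a2, Cox8a, Cox6b1 and Cox7b fell by 0.16, 0.14, 0.10 and 0.14 on the log2 scale, and Ndufa4, once counted to complex I and now to complex IV, by 0.16. Without H64 the calls of these 5 were lost (edgeR adjusted p 0.0793 to 0.247), without H95 those of Cox8a, Cox6b1 and Cox7b (0.069 to 0.146), and without H99 that of Cox6b1 (0.0521), which was not called with mouse as a fixed replicate block either (0.0806). Cox6a1 was not called, with a log2 fold change of -0.11 (SE 0.042, adjusted p 0.0586) in edgeR, but was called with mouse as a random replicate block in limma-voom (adjusted p 0.0442), without H61 (0.0125) and with upper quartile, total-count or FPKM scaling (0.0238 to 0.033).

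Isoforms with a restricted tissue pattern varied widely between libraries. The striated muscle isoform Cox6a2 was 0.33, 0.177, 0.577, 0.289 and 7.91 CPM on the uninjured and 0.322, 0.347, 0.314, 0.42 and 1.296 CPM on the injured side of cKO mice. Within the cKO, H100 stood alone on both sides, while control libraries had 3.43, 0.416, 1.501, 0.871 and 0.362 CPM uninjured and 0.281, 0.206, 4.12, 2.004 and 0.27 CPM injured, highest in the injured side of H65 and the uninjured side of H62. Cox8b, another muscle isoform, was highest in the same uninjured library of H100, at 3.25 CPM uninjured against 0.203 CPM in H64, and reached 1.52 CPM in the uninjured library of control H62 and 1.42 CPM in the injured one of H65. The sum of 10 skeletal muscle markers was 2296 CPM in that uninjured library and 5.15 to 896 CPM in the other 19. Neither isoform was called (edgeR adjusted p 0.248 and 0.142). Ndufa4l2, a paralogue of Ndufa4 known for induction by hypoxia, was 1.13, 1.22, 3.02, 1.11 and 1.19 CPM uninjured and 0.935, 0.915, 0.88, 1.06 and 1.06 CPM injured in the cKO. The uninjured library of H95 was 3.02 CPM and the other 4 were near 1 CPM, so the called log2 fold change of -0.66 (SE 0.24, adjusted p 0.0372) in edgeR rested largely on 1 library, and it was not called without H95 (adjusted p 0.334), without H63, H64 or H97 (0.0505 to 0.065) or with mouse as a replicate block (0.0937 fixed, 0.0527 random). The testis isoform Cox6b2 was 1.59, 2.37, 2.64, 1.57 and 2.63 CPM uninjured and 1.46, 1.49, 1.41, 1.17 and 2.24 CPM injured in the cKO, lower in 5 of 5 mice with overlapping ranges. Its log2 fold change was -0.48 (SE 0.19, adjusted p 0.0688) in edgeR, not called, and with mouse as a replicate block it was called (0.0368 fixed, 0.0344 random in limma-voom). The muscle isoform Cox7a1, at -0.51 (SE 0.21, adjusted p 0.0709) in edgeR, was called only without H61 (0.0323) among the mice left out.

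Of the 18 ATP synthase members, 11 fell in the cKO, and in control mice 1 fell and 1 rose. Atp5d, the delta subunit of the central stalk, rose in control mice from 226, 235, 232, 221 and 225 to 241, 249.7, 248, 247 and 239 CPM. Those ranges did not overlap (log2 fold change 0.10 (SE 0.027, adjusted p 0.005)), while in cKO mice it was 228, 241, 239.5, 242 and 234 CPM uninjured and 246, 228, 234, 241 and 244 CPM injured (log2 fold change 0.01 (SE 0.027, adjusted p 0.854), edgeR). Atp5s, coupling factor B, fell in control mice from 22.1, 19.2, 20.1, 22.2 and 21.5 to 19.1, 18.6, 18.03, 17.7 and 19.2 CPM without overlap (log2 fold change -0.18 (SE 0.042, adjusted p 0.00204), edgeR). In cKO mice its sides did not overlap either and it was lower in 5 of 5 mice, with a log2 fold change of -0.11 (SE 0.042, adjusted p 0.0586) in edgeR, not called, and -0.15 (adjusted p 0.0422) with the covariate. It was called there with mouse as a random replicate block in limma-voom (adjusted p 0.0463) and with upper quartile, total-count or FPKM scaling (0.0299 to 0.0381). Atp5e, the epsilon subunit of the central stalk, fell in the cKO by 0.20 on the log2 scale, a call lost without H64, H95 or H100 (edgeR adjusted p 0.0757 to 0.141). The catalytic hexamer subunits Atp5a1 and Atp5b had log2 fold changes of -0.07 and -0.07 in the cKO and were not called (edgeR adjusted p 0.207 and 0.18), although Atp5a1 was with total-count or FPKM scaling (0.0158 to 0.0168). A pair of identifiers carries the symbol Atp5o, with log2 fold changes of -0.10 and -0.10, of which 1 was called (not with mouse as a fixed replicate block, edgeR adjusted p 0.0528, while the other was with a random one in limma-voom, 0.0487), and reads may be split between them.

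The nuclear sum in the cKO went from 8587, 9275, 8880.2, 8732 and 9004 CPM uninjured to 8507, 7775, 8105, 8376 and 8453 CPM injured. It was lower in 5 of 5 mice and the sides did not overlap, with the widest gap in H64. The means were 8895 ± 264 and 8243 ± 304 CPM, a difference of -7.33%, against 8465 ± 229 and 8465 ± 216 CPM in control mice. The ratio of the mitochondrial to the nuclear sum was 1.29 ± 0.0651 uninjured and 1.17 ± 0.0464 injured in cKO mice, and 1.197 ± 0.0990 and 1.27 ± 0.0642 in control mice. Over single members, 49 were lower in 5 of 5 cKO mice, where 17.5% of all genes were, and 25 had ranges that did not overlap, where 8.32% did. Longer nuclear members differed less between the sides in the cKO: across the 82 tested without pseudogenes, which share libraries, Spearman's rho of exon length and log2 fold change was 0.41, and -0.07 in control mice. All tested genes had a like trend in the cKO. Their median log2 fold change was -0.051 up to 1000 bp, -0.053 from there to 4000 bp and -0.003 above 4000 bp. Of 8 tested pseudogenes, whose reads may come from their parent genes, Ndufb4c and Uqcrh-ps2 fell, calls lost without H61 or H64 (edgeR adjusted p 0.0737 to 0.121) and without H61, H64, H95 or H100 (0.0504 to 0.101). The cytosolic ribosomal protein genes, another group of short abundant transcripts, had a median log2 fold change of -0.09 over 83 genes in the cKO and 0.07 in control mice.

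Markers of the cell types in the ganglion were tested in the same edgeR fit. In cKO mice 1 of 6 fibroblast markers, 2 of 12 sensory neuron markers and 1 of 4 adipocyte markers were called lower, where 15.1% of all genes were, and 2 of 6 satellite glia and 1 of 6 mural cell markers were called higher, where 16.2% were. In control mice 4 of 12 sensory neuron markers were called lower, where 16% of all genes were, and 2 of 6 satellite glia, 1 of 6 Schwann cell, 1 of 6 macrophage, 1 of 5 endothelial and 1 of 6 mural cell markers were called higher, where 13.8% were. The sum of the 10 skeletal muscle markers went from 488 ± 1011 to 50.2 ± 72.4 CPM in cKO mice and from 36.2 ± 36.1 to 19.8 ± 28.6 CPM without H100 (n = 4). Of the 10, 10 had a log2 fold change below 0, with a median of -3.06, and 0 were called by edgeR (1 at an unadjusted p under 0.05) and limma-voom and 5 by DESeq2. Without H100, 60 respiratory chain members were called lower in the cKO, 48 nuclear and 12 mitochondrial, and the sums differed by -0.11 and -0.25 on the log2 scale. The adipocyte sum was 12.6 ± 10.1 CPM uninjured and 5.401 ± 1.36 CPM injured in cKO mice. The uninjured library of H99 had 30.2 CPM, and the other uninjured cKO libraries had 5.47 to 11.1 CPM. Other sums lower on the injured side of cKO mice included the fibroblast markers, at 698 to 1694 CPM uninjured and 664 to 1187 CPM injured, and the erythroid markers, at 228 to 715 CPM and 214 to 533 CPM. The sensory neuron sum was 8905 ± 516 and 8659 ± 294 CPM in control and 8579 ± 557 and 8291 ± 217 CPM in cKO mice. The part of these cells in the levels of the respiratory chain genes was not tested.

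On the uninjured side 0 of 103 members were called between the genotypes (edgeR quasi-likelihood test), where 0.0735% of all genes were. The lowest adjusted p was 0.0971, for Atp5j, with 93.8 ± 5.41 CPM in cKO and 84.99 ± 2.9 CPM in control mice (log2 fold change 0.14). At an unadjusted p under 0.05, 69 members were higher and 1 was lower in the cKO, against 8% and 9.53% of all genes, and the medians were 0.09 for nuclear and 0.18 for mitochondrial members. DESeq2 called 16 members, 13 nuclear and 3 mitochondrial, and limma-voom, in which mouse was a random effect, called 0. Without cKO mouse H99 edgeR called 33, and without H61 it called 1. The shares of all genes called in these other runs are not given here, so these counts are not set against them. The cKO uninjured libraries had the lowest mean total counts of the 4 groups. On that side 5 of 6 fibroblast markers were also higher in the cKO at an unadjusted p under 0.05, with a sum of 731 ± 153 CPM in control and 1159 ± 422 CPM in cKO mice, and the erythroid sum was 359 ± 157 and 495 ± 174 CPM. Their part in the difference was not tested. Ndufs3, Ndufc2, Atp5l and Cox7b were higher in every cKO than in every control library of that side, and 0.448% of all genes were.

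On the injured side 0 of 103 members were called between the genotypes (edgeR), where 0.007% of all genes were, and 11 were lower at an unadjusted p under 0.05, 9 of them mitochondrial, where 1.18% of all genes were. DESeq2 and limma-voom also called 0. The medians were -0.03 for nuclear and -0.15 for mitochondrial members. mt-Co1 was 2635 ± 202 CPM in control and 2329 ± 136 CPM in cKO mice, with overlapping libraries (log2 fold change -0.18).

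The interaction of genotype and injury was below 0 for 101 of 103 members, where it was for 13456 of 28564 tested genes. It was called for none of the members (edgeR), where 0% of all genes were called. At an unadjusted p under 0.05, 65 members were lower, 13 of 13 mitochondrial and 52 of 90 nuclear, against 4.47% of all genes. mt-Nd2 had the lowest unadjusted p, with an interaction of -0.36 (SE 0.088, adjusted p 0.485) on the log2 scale in edgeR. DESeq2 called that gene alone, and limma-voom called 0. The medians were -0.33 for mitochondrial and -0.14 for nuclear members, and -0.12 and -0.07 with total counts as a covariate. All 5 comparisons draw on the same 4 groups, so they share libraries.

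Some of the genes that build or regulate the chain were called in both genotypes. Of 47 assembly factors, 14 fell and 2 rose after injury in control mice, and 20 fell and 3 rose in cKO mice (medians -0.06 and -0.09), and with total counts as a covariate 13 and 16 fell. Coa6, a copper chaperone for complex IV, fell by 0.30 and 0.46 on the log2 scale in control and cKO mice, and Nubpl, which supplies iron-sulphur clusters to complex I, by 0.29 and 0.34. Ndufaf4, a complex I assembly factor, rose by 0.15 and 0.14, and Ttc19, of complex III, by 0.10 and 0.19. Of 78 mitochondrial ribosomal protein genes, 33 fell and 2 rose in control and 41 fell and 3 rose in cKO mice, with medians of -0.09 and -0.11. Mrps5 and Mrpl44 fell in control mice by 0.22 and 0.26, and Mrpl12 fell in the cKO by 0.31. Of all genes, 16% were called lower and 13.8% higher in control mice, and 15.1% and 16.2% in cKO mice, and with both directions together the assembly factors called in control mice, 16 of 47, were near the 29.9% of all genes.

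The counts of the following lists are to be read against the same shares of all genes. Of 15 regulators of mitochondrial biogenesis, 6 fell and 5 rose in control and 7 fell and 4 rose in cKO mice. The 3 estrogen-related receptors, nuclear receptors that activate respiratory genes, fell, Esrra by 0.26 in control and 0.36 in cKO mice, Esrrg by 0.62 in control and 0.81 in cKO mice, and Esrrb by 0.63 and 0.81 on the log2 scale. Ppard, a fatty-acid-sensing nuclear receptor, rose by 0.76 and 0.81, and Pprc1, a coactivator of the PGC-1 family, by 0.41 and 0.54. Of 25 genes for copying and expressing mitochondrial DNA, 7 fell and 3 rose in control and 7 fell and 5 rose in cKO mice. Tefm, the mitochondrial transcription elongation factor, fell by 0.25 and 0.41, and Ssbp1, which binds single-stranded mitochondrial DNA, by 0.20 and 0.29, while the RNA-processing enzyme Elac2 rose by 0.20 and 0.26. Of 16 genes of the tricarboxylic acid cycle and pyruvate dehydrogenase, 2 fell in control mice, a share below that of all genes, and 7 fell and 1 rose in cKO mice. Idh3a fell by 0.11 and 0.14, and citrate synthase, Cs, rose in the cKO by 0.13. Of the 6 subunits and carriers outside the name patterns, 0 were called in control mice (edgeR; 0 also at an unadjusted p under 0.05 and by DESeq2 and limma-voom) and 4 fell in cKO mice, among them Cox4i1 by 0.14 and Ndufab1 by 0.13, and with total counts as a covariate 0 of the 6 were called in the cKO (edgeR; 2 at an unadjusted p under 0.05).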

How the data were processed

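RNA of L4 to L6 ganglia was sequenced from stranded mRNA libraries as paired reads of 150 bp, per the labels' protocols. The deposited files are a table of whole-number exonic counts per gene, not normalized, and a table of FPKM that the authors derived from them. The submitters' processing notes name HISAT2, Picard, mm10 and mm39 without a role. The counting program, the build the counts used and the strand setting are not given in the sources used here. For a sample whose title shortens the mouse number the library name was used, and a label naming a spinal cord injury was set aside for the protocol's sciatic transection. The control mice include both Ahr f/f and f/+.

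Gene symbols came from GENCODE M21 by Ensembl identifier (51487 of 78258 matched). Of 56837 genes with any count, filterByExpr (minimum count 10, minimum total 15) left 28564. One edgeR 4.0.16 fit (R 4.3.3; TMM scaling, robust quasi-likelihood F-test) of the 20 libraries, with a mean per group, gave the injured against the uninjured side within a genotype, the genotypes against each other within a side, and the interaction. Benjamini-Hochberg adjustment ran over all tested genes, and a call needed an adjusted p under 0.05. Sums are sums of TMM-scaled CPM. The fitting code was tested on simulated data. Depth was 76.2 to 118.5 M counts, and replicate pairs differed by more than counting error (chi-square per degree of freedom 5.14 to 56.0 over 40 pairs), and precision therefore rested on the spread between mice.

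The sides of a mouse are paired, since they come from the same animal. Deviations of both sides of a mouse from their group means, correlated across genes, had a median of 0.186 over 10 mice (-0.0546 to 0.361). The alternatives were mouse as a replicate block (fixed, or random in limma-voom), DESeq2 1.42.0, RLE, upper quartile and total-count scaling, omitting the filter or asking for a mean of 1 CPM, limma 3.58.1 on log2 FPKM (pseudocount 1 or 0.1), fitting or splitting by the range of mouse numbers, only the libraries compared, and leaving out each mouse. Total counts as a covariate was added after the data had been seen. The members and lists were chosen with earlier results of these data known. Genes are named by rule: the 13 mitochondrial genes, complex II, the highest member per length of each role, and tissue isoforms with their common counterparts. Per injury comparison, up to 5 called nuclear members lowest or highest in log2 fold change were added, with a floor of 5 CPM on their level. Ndufa4l2 and Uqcrh-ps2, called in the cKO, lay below that floor and were not taken by this part. Up to 2 called genes per direction and related list were added too. Other members were named after their values had been seen. The result of 1 member is not reported here.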

Additional observations from a re-analysis of the deposited data

Results flagged for a closer look

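In 10 of 176 groups of 5 libraries examined for the named genes and sums, 1 library stood apart from the other 4, where chance flags about 1 in 20 groups, or 8.8 here. The measure is the gap between that library and its nearest neighbour as a share of the group's range. The sums of cell type markers were not among the groups examined. Cox6a2 (0.948) and Cox8b (0.958), both muscle isoforms, were highest in the uninjured library of cKO H100, and Cox6a2 was also highest in its injured library (0.892). The same uninjured library had the highest sum of skeletal muscle markers, 2296 CPM, and their part in the isoform levels was not tested. Ndufa4l2 was highest in the uninjured library of cKO H95 (0.944). On the injured side of cKO mice mt-Cytb (0.748) and mt-Nd2 (0.725) were highest in H100, and mt-Nd3 was lowest in H64 (0.794). mt-Nd4l was lowest in the uninjured library of control H96 (0.785), which had 117.4 M counts. On the injured side of control mice Atp5a1 was lowest in H97 (0.788) and Ndufs3 was highest in H65 (0.818).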

How the results depend on the processing

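No named gene that had been called reversed its direction under any alternative run, nor did the sums and their ratio in the cKO or between the genotypes. In control mice the log2 difference of the nuclear sums between the sides lay between -0.02 and 0.01 and had no stable sign, and that of the mitochondrial sums was 0.08, 0.15 without H97 and nil without H96. Of 4989 values of single genes under the alternatives, 4772 stayed on their side of the threshold, 165 lost their call and 52 gained one. Members called after injury in the cKO numbered 74, and 9 with log2 total counts as a covariate (added after the data had been seen), 38 with only the libraries compared, 6 within mouse numbers H61 to H65 and 11 within H95 to H100, where fewer libraries enter, and 33 to 77 when 1 mouse was left out. With mouse as a replicate block they were 63 (fixed) or 80 (random, limma-voom), and without a filter 50. In control mice 5 were called, and 8 with upper quartile scaling or log2 FPKM with a pseudocount of 1, 3 without a filter, 1 and 0 within the ranges of mouse numbers, and 3 to 7 when 1 mouse was left out. Between the genotypes on the uninjured side 0 were called, 16 by DESeq2, and 0 to 33 when 1 mouse was left out, and the log2 difference of the nuclear sums was 0.07 in CPM and 0.12 in FPKM. For the interaction DESeq2 called 1. Apart from the covariate run, calls over all genes in these alternative runs are not given here, so the shifts are not read as particular to the members. The cause of these shifts was not tested. After injury the fixed replicate block lost 12 calls and gained 1 in the cKO and lost 1 and gained 1 in control mice, and the random one lost 1 and gained 7 in the cKO. Depth was 76.2 to 118.5 M counts, and replicate pairs differed by more than counting error.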
